A study of Mus musculus with 21 samples.

Results

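The ileum of transgenic mice injected with 1,25-dihydroxyvitamin D3 (1,25D3) was compared with the ileum of uninjected mice of the same genotype, in 3 libraries against 3. The members were all genes averaging at least 1 FPKM (fragments per kilobase of transcript, scaled to the library's total) over these 6 libraries, which left 11815 of 21441 genes. Shc2, at a mean of 1.0011 FPKM, was the lowest gene inside this limit, and Cdh24, at 0.9999 FPKM, the highest outside it. The series has 21 libraries in all, from colon and ileum.

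Mice of both groups were C57BL6J animals with the CDX2-VDR genotype. Mouse vitamin D receptor (VDR) was absent, and a transgene driven by the CDX2 promoter supplied human VDR to the distal intestine. The treated mice were male, 9 weeks old, and received 1,25D3 at 1 ng per g of body weight in 3 injections, at 48, 24 and 6 h before the end. The uninjected mice received nothing, so injection and 1,25D3 cannot be told apart. By the labels 2 of the 3 uninjected mice were female, aged 9 weeks, and 1 was male, aged 10 weeks, so sex and age partly coincide with treatment. The KO mice, whose ileum is given for level, were male, uninjected C57BL6J mice of 9 to 11 weeks with floxed Vdr and Villin-CreERT2, a tamoxifen-dependent recombinase of the intestinal epithelium (4 libraries). Colon came from transgenic mice of the same strain and genotype. The 3 treated were male, 9 weeks old and injected at the same dose and times, and of the 4 uninjected, aged 9 to 10 weeks, 3 were female and 1 male, so sex partly coincides with treatment there too. The labels give no identifier of an animal, so each p-value reflects the spread among samples only, which may be technical.

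1,25D3 is the hormonal form of vitamin D. It binds VDR, which pairs with a retinoid X receptor on DNA and changes transcription of its targets. In the gut these include genes that carry calcium across the epithelium, and Cyp24a1, whose enzyme inactivates 1,25D3 itself. The ileum is also the main site of bile acid recovery and the segment richest in Paneth cells, which secrete antimicrobial peptides.

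The 6 libraries differed from each other more than the groups did. On the first principal component, which held 64.1% of the variance, treated library 1 and uninjected library 3 stood at 64.5 and 86.2, and the other 4 libraries between -65.5 and -19.0. Slopes on GC content were fitted jointly with transcript length to each library's log2 deviation from the gene means over the 6 libraries. They were 0.81 per 10% of GC content in these 2 libraries and between -0.70 and -0.12 in the others. Since they are relative to a shared mean, positive slopes in some libraries go with negative ones in others. Uninjected library 1 stood apart on the second component (14.8% of the variance), at -57.6 against 3.08 to 24.5 in the other 5 libraries. Estimated depth was 22.4 to 30.3 M reads in treated and 16.2 to 47.7 M in uninjected libraries. The Y-linked Ddx3y was at 1.61, 10.5 and 14.1 FPKM in treated libraries and at 0.0336, 2.24 and 8.79 FPKM in uninjected ones, so 2 uninjected libraries held this transcript where the labels give 1 male. The tissue label names intestinal epithelium, and Krt8 and Vil1, which mark it, were high in each library. Smooth muscle markers summed to 794 to 2606 FPKM in treated and 813 to 3156 FPKM in uninjected libraries, so the libraries held muscle transcripts as well. In such bulk libraries fewer cells of a type and less RNA per cell cannot be told apart.

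No gene passed the test between treated and uninjected ileum. Limma called 0 of 11815 genes at an adjusted p under 0.05 (0% of those tested), and the smallest adjusted p was 0.471, shared by Arg1, Hp, Serpina3n and Cyp24a1. At an unadjusted p under 0.05 there were 97 genes (0.821%), 57 higher (0.482%) and 40 lower (0.339%) in treated ileum. Groups did not overlap for 319 genes (2.70%), with treated above uninjected in 175 (1.48%) and below in 144 (1.22%). Were the group labels assigned at random, 3 libraries against 3 would not overlap for an expected share of 0.1 of genes. Neither 2.70% beside that share nor 0.821% beside a share of 0.05 was thus an excess. Over all tested genes the median log2 difference was -0.02 and 47.2% of differences were above 0. The median SE of a log2 difference was 0.48. It was 0.31 once the GC and gene length trends were removed library by library, and 0.34 without treated library 1 and uninjected library 3, and 0 genes passed in either case. Genes are therefore described below as higher or lower by their values. Those named by their p were chosen by this same comparison, and their p-values are a description.

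Cyp24a1 (2:170308208-170322645, mm9), the 24-hydroxylase that degrades 1,25D3, had the clearest difference among vitamin D genes. It stood at 3.94, 11.3 and 18.3 FPKM in treated ileum. In KO ileum, from another table that was scaled on its own, it was listed at 0 in 3 libraries. It was at 0.0114 FPKM in 1, after KO values were multiplied by a mean factor between the tables. In uninjected ileum it was at 0.168, 0.466 and 0.00758 FPKM. Every treated library was above every uninjected one, and the lowest treated library was treated 1, which stood apart. The log2 difference was 3.85 (SE 0.58, limma, adjusted p = 0.471), or 14.4-fold on the log2(FPKM + 0.5) scale. Without the 2 libraries that stood apart it was 4.68. The size depends on the added value, with log2 differences of 5.22 for an added 0.1 and 3.14 for an added 1, and on the method, with 7.05 by voom on recovered reads. With the KO libraries in the same limma fit the log2 difference stayed at 3.85, the SE was 0.47 and the adjusted p was 0.0346. The KO libraries change only the error estimate of that fit, and they lie at or near 0 for this gene, with almost no spread.

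The other genes of the qPCR panel in the submitters' protocol did not separate the groups. S100g (X:159399924-159402531), the cytosolic calcium-binding protein calbindin-D9k, stood at 389, 832 and 1445 FPKM in treated ileum, at 19.1 to 29.3 FPKM in KO ileum and at 5172, 3607 and 444 FPKM in uninjected ileum. Uninjected library 4 lay within the treated range and the other 2 above it (log2 -1.38, SE 0.94, limma, adjusted p = 1.0). Without treated 1 and uninjected 3 the log2 difference of S100g was -0.47.

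Trpv6 (6:41570620-41586404), the apical calcium channel, was low in this segment, at 0.985, 0.530 and 3.14 FPKM in treated and 1.53, 2.08 and 0.103 FPKM in uninjected ileum. The groups overlapped (log2 0.27, SE 0.69), and the sign turned to -0.37 without uninjected 4 and to -0.25 without treated 4. Trpv5, its neighbour and the main calcium channel of the kidney tubule, was listed at 0 in all 6 libraries. Slc30a10 (1:187278727-187292641), a manganese exporter, was at 4.25, 10.5 and 54.1 FPKM in treated and 45.2, 4.98 and 15.4 FPKM in uninjected ileum. Its spread within each group exceeded the difference between groups (log2 -0.16, SE 1.01), whose sign changed with the library left out, from -1.13 without treated 4 to 0.63 without treated 1. Slc37a2, a sugar-phosphate exchanger, was at 0.456 to 1.53 FPKM in treated and 0.724 to 1.36 FPKM in uninjected libraries (log2 -0.09, SE 0.44, and 0.20 without treated 2). Mouse Vdr was at 12.3, 17.2 and 21.2 FPKM in treated ileum, at 18.7 to 20.4 FPKM in KO ileum and at 22.5, 21.4 and 24.4 FPKM in uninjected ileum. The libraries labelled KO thus held Vdr reads at a level within the range of transgenic ileum, in a table scaled on its own. The treated and uninjected groups did not overlap, by less than 1 FPKM (log2 -0.45, SE 0.35, limma, adjusted p = 1.0). This level does not check the labels, since a value per gene does not show which exons were read and transgene reads may be counted in it. By an exact two-sided permutation test of mean FPKM, p was 0.1 for Cyp24a1 and Vdr, the smallest that 3 against 3 allows, and 0.3 to 1 for S100g, Slc30a10, Slc37a2 and Trpv6.

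**Figure D1:**
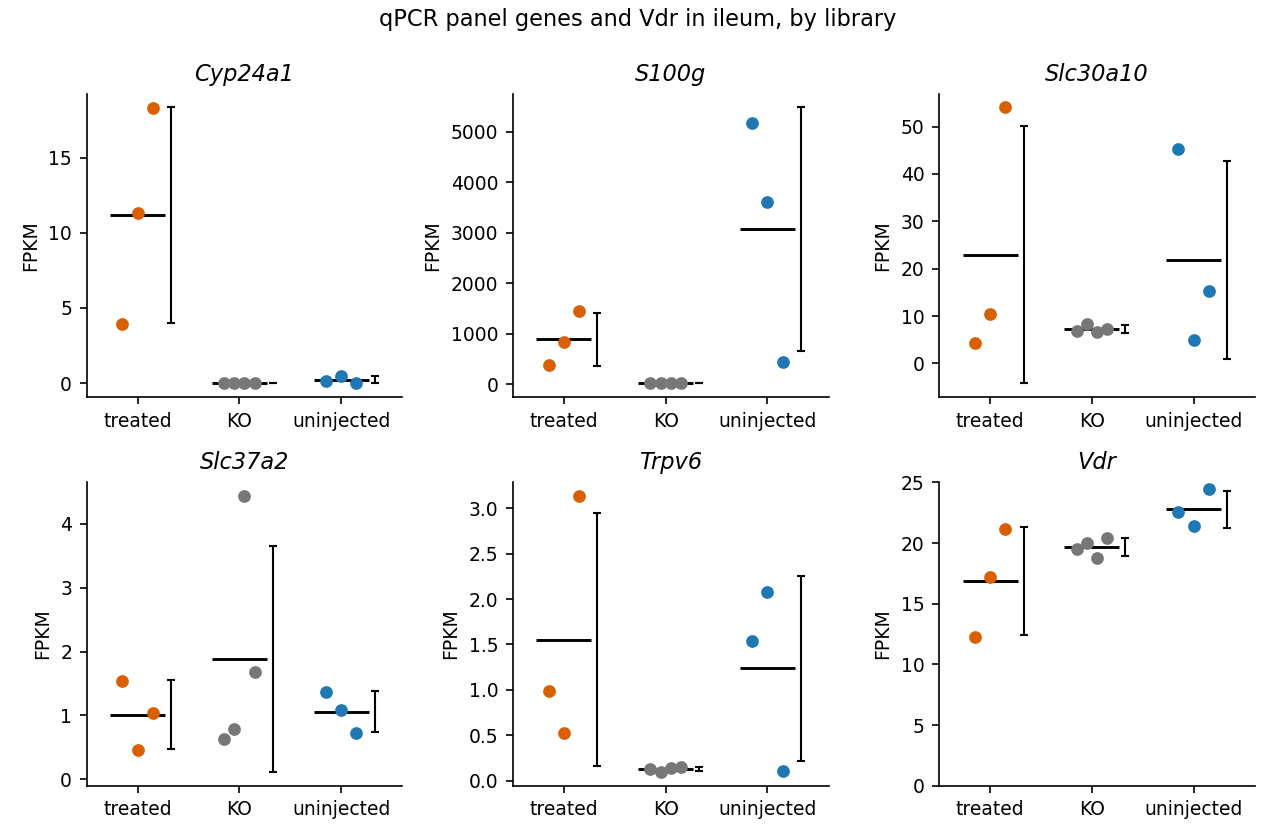
FPKM (vertical axes, linear) of 5 qPCR panel genes and Vdr in treated, KO and uninjected ileum. Each panel has 1 point per library, a line at the mean and a bar of 1 SD beside it. KO values come from a table scaled on its own and were multiplied by a mean factor between the tables. Cyp24a1 stands at 3.94 to 18.3 FPKM in treated and below 0.5 FPKM in KO and uninjected libraries, while S100g, Slc30a10, Slc37a2 and Trpv6 overlap between treated and uninjected ileum.

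Beyond Cyp24a1, the genes around vitamin D and mineral transport had median log2 differences near that of all genes. Of 13 tested genes for VDR, its partners and the vitamin D hydroxylases 6 were higher and 7 lower in treated ileum, with a median log2 difference of 0.00. Rxrb, a retinoid X receptor, was at 4.10 to 16.5 FPKM in treated and 8.27 to 31.3 FPKM in uninjected ileum (log2 -0.72, SE 0.64). Of 7 calcium genes 3 were higher and 4 lower (median 0.00). Among these, Atp2b1, the basolateral calcium pump, was at 8.96, 37.8 and 59.4 FPKM in treated and 131, 10.7 and 33.3 FPKM in uninjected ileum, groups that overlapped (log2 -0.40, SE 0.97, and 0.52 without uninjected 1). Stc2, a secreted stanniocalcin, was at 2.19 to 4.03 FPKM in treated and 1.12 to 2.90 FPKM in uninjected libraries (log2 0.55, SE 0.45). The medians were 0.02 over 4 phosphate, 0.02 over 10 magnesium, -0.03 over 15 zinc and manganese and -0.11 over 10 iron genes. Trpm6, the magnesium channel, was at 0.520 to 2.67 FPKM in treated and 0.817 to 10.2 FPKM in uninjected libraries (log2 -1.02, SE 0.78). Slc39a8, an importer of zinc and manganese, was at 2.60 to 12.5 FPKM in treated and 1.30 to 4.93 FPKM in uninjected libraries (log2 1.15, SE 0.65). Cyp24a1 alone in these 6 lists had an unadjusted p under 0.05, a count near the background of 0.821% of all genes. Without treated 1 and uninjected 3 the calcium list had a median of -0.23 and the vitamin D list of 0.10.

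Apart from Cyp24a1, the higher genes named by p belonged mostly to the acute-phase and innate response. Hp (8:112099030-112103072), which encodes the haemoglobin-binding haptoglobin, stood at 179, 60.6 and 72.9 FPKM in treated ileum, against 1.76, 8.93 and 4.07 FPKM in uninjected ileum. It had the largest log2 difference of the 20 genes named by p, 4.34 (SE 0.62, limma, adjusted p = 0.471), or 20.2-fold. Serpina3n (12:105644939-105652539), a secreted inhibitor of serine proteases, was at 37.1, 21.2 and 75.3 FPKM in treated and 2.61, 1.39 and 3.88 FPKM in uninjected ileum. For both genes the lowest treated library was well above the highest uninjected one, and their log2 differences without treated 1 and uninjected 3 were 4.38 and 3.46.

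Lcn2 (2:32240153-32243317), which encodes lipocalin 2, a protein that binds bacterial iron carriers, was at 25.2, 7.75 and 69.8 FPKM in treated and 1.43, 2.35 and 2.16 FPKM in uninjected ileum (log2 3.33, SE 0.72). Saa3 (7:53967368-53971046), a serum amyloid made outside the liver, was at 165, 26.3 and 183 FPKM in treated and 19.2, 17.2 and 13.3 FPKM in uninjected ileum (log2 2.47, SE 0.72). For both genes treated library 2 was the lowest of its group and still above each uninjected library. S100a8 (3:90472993-90473956), a calcium-binding protein abundant in neutrophils, was at 13.0, 4.42 and 21.8 FPKM in treated and 0.773, 2.35 and 1.83 FPKM in uninjected ileum (log2 2.49, SE 0.61). Saa3 has similar gene copies that may share its reads. These 3 genes had adjusted p-values of 1.0 in limma.

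The list of acute-phase and antimicrobial lectin genes did not lie on one side as a whole. Of its 15 tested genes 8 were higher and 7 lower (median log2 difference 0.14), and Hp, Lcn2, S100a8 and Saa3 were the 4 with groups that did not overlap and with an unadjusted p under 0.05 (background 0.482% higher). Arg1 (10:24635014-24647276), the arginase that turns arginine into ornithine and urea, had the smallest p of all. It was at 4.76, 7.24 and 10.6 FPKM in treated and 0.376, 0.351 and 0.604 FPKM in uninjected ileum, and the groups were far apart (log2 3.03, SE 0.42, limma, adjusted p = 0.471). With the KO libraries in the same limma fit its log2 difference stayed at 3.03, with an SE of 0.32 and an adjusted p of 0.0149. Arg1 was at 0.502 to 0.721 FPKM in KO ileum, so that fit adds libraries of low spread from another genotype.

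Chemokines lay mostly on the higher side. Of 17 tested chemokine and cytokine genes 13 were higher and 4 lower (median log2 difference 0.35). Ccl7, which draws monocytes, was at 1.69, 3.87 and 9.64 FPKM in treated and 0.576, 0.508 and 0.596 FPKM in uninjected ileum (log2 2.12, SE 0.57). Ccl2, a monocyte chemokine encoded next to Ccl7, was at 3.10, 5.46 and 18.0 FPKM in treated and 1.78, 1.49 and 1.79 FPKM in uninjected ileum (log2 1.75, SE 0.60). Ccl9 was at 9.45 to 14.6 FPKM in treated and 3.58 to 8.70 FPKM in uninjected libraries (log2 1.17, SE 0.44). None of these groups overlapped, and treated library 4 was the highest for each. Of 12 myeloid markers 9 were higher and 3 lower (median log2 0.14), and the list of 14 summed to 318 to 644 FPKM in treated and 334 to 576 FPKM in uninjected libraries. Fcgr3, an immunoglobulin receptor of myeloid cells, was at 10.8 to 12.0 FPKM in treated and 4.08 to 9.98 FPKM in uninjected libraries. All 7 endothelial markers were higher (median 0.45), with Pecam1 at 3.70 to 10.3 FPKM in treated and 2.30 to 4.87 FPKM in uninjected libraries, and Cdh5 at 2.56 to 5.19 FPKM in treated and 1.17 to 2.79 FPKM in uninjected libraries. Of 12 fibroblast and matrix genes 10 were higher (median 0.40), with Dcn at 44.6 to 136 FPKM in treated and 28.0 to 61.6 FPKM in uninjected libraries. The part of these cell types in the higher inflammatory genes was not tested.

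A further gene named on the higher side, Anxa8, was low. It encodes an annexin that binds membranes in a calcium-dependent way and was at 2.48, 2.02 and 1.50 FPKM in treated and 0, 0.374 and 0.265 FPKM in uninjected ileum (log2 1.83, SE 0.41). Its groups did not overlap, but the library at 0 makes this difference depend on the added 0.5.

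**Figure D2:**
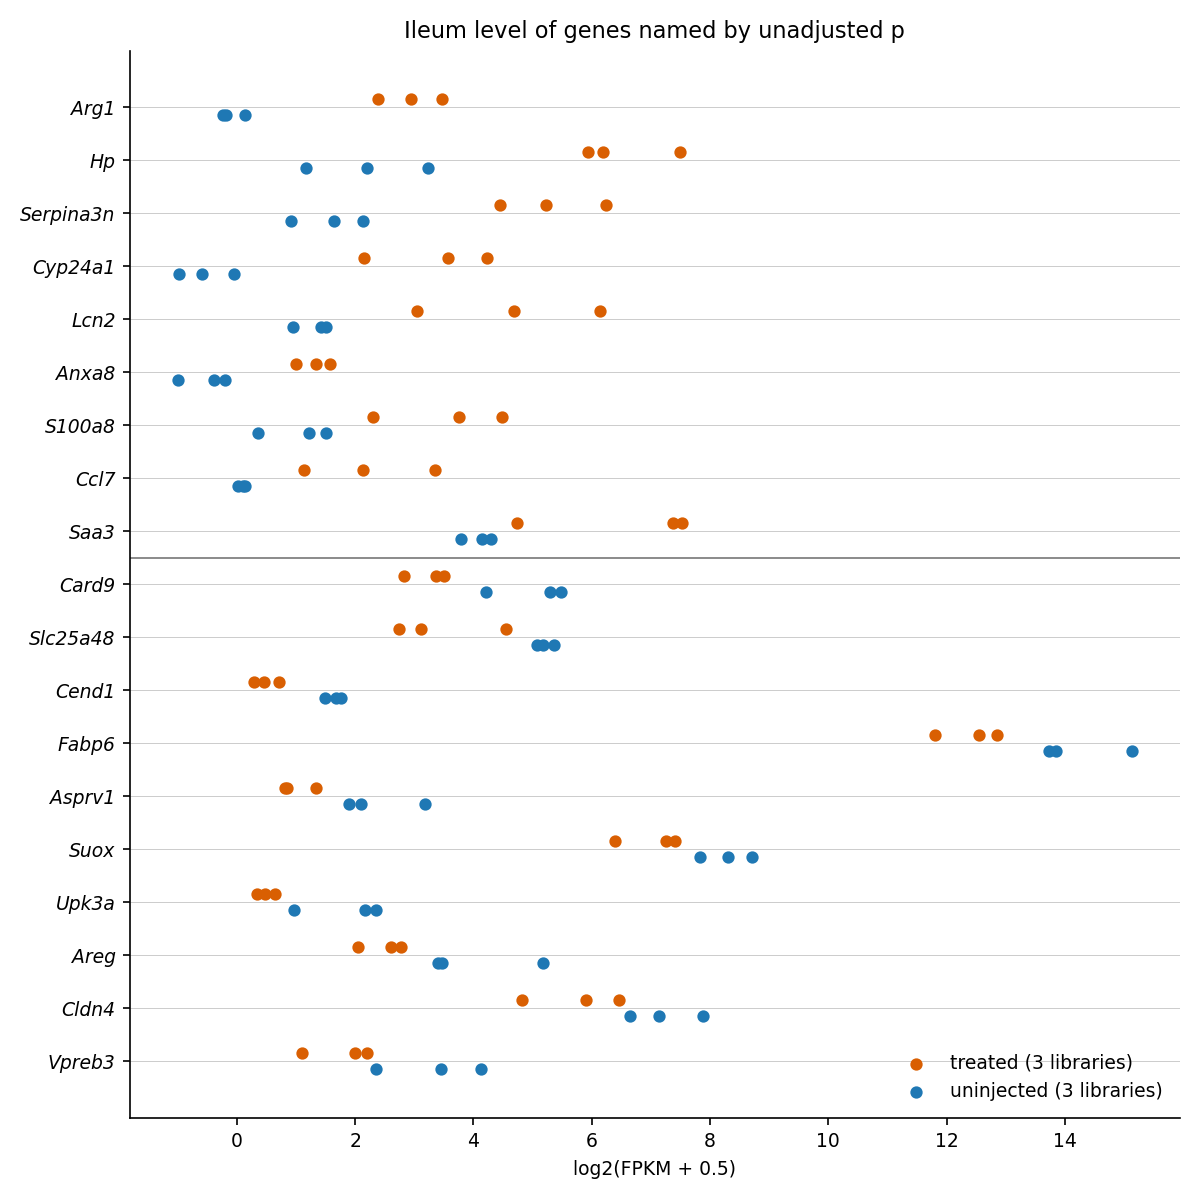
Level as log2(FPKM + 0.5) (horizontal axis) of 9 higher and 10 lower genes named by smallest p, treated libraries above uninjected ones in each row, 1 point per library. The genes were picked for not overlapping, so the separation is how they were chosen; the gap between the lowest treated and the highest uninjected library is widest for Hp, Serpina3n and Arg1, and Fabp6 is the most abundant.

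Promoter windows, from 250 bases before to 50 after the start, were taken from RefSeq (build GRCm38.p6) for the 10 higher genes. For 5 of them the table holds a window, Anxa8, Lcn2, S100a8, Saa3 and Serpina3n, and the windows of Arg1, Ccl7, Cyp24a1 and Hp were not analysed here. Each was searched on both strands for TTGCNNAA, a form of the C/EBP motif, GGNNTTTCC, a form of the NF-kB motif, and TTCNNNGAA, a form of the STAT motif, since factors of these families act on acute-phase genes. Lcn2 and Saa3 held TTGCNNAA, as did 10.8% of all 32851 windows. Saa3 and Serpina3n held GGNNTTTCC, as did 5.82% of all windows. None of the 5 held TTCNNNGAA, which 8.30% of all windows held. The 3 windows with a match are shown with the match in capitals. They lie at chr2:32387690-32387989 (minus strand) for Lcn2, chr7:46715627-46715926 (minus strand) for Saa3 and chr12:104406458-104406757 (plus strand) for Serpina3n.
Lcn2: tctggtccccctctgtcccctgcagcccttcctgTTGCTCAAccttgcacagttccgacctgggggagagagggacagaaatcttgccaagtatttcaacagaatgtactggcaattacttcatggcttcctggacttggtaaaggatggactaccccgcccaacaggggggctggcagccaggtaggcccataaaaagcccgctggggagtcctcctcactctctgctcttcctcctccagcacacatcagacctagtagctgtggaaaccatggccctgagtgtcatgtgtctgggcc
Saa3: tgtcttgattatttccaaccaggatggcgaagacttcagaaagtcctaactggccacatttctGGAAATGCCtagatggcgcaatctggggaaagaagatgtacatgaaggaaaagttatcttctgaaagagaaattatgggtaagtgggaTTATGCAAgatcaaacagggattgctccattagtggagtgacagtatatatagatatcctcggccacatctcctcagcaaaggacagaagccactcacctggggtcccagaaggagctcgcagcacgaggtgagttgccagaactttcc
Serpina3n: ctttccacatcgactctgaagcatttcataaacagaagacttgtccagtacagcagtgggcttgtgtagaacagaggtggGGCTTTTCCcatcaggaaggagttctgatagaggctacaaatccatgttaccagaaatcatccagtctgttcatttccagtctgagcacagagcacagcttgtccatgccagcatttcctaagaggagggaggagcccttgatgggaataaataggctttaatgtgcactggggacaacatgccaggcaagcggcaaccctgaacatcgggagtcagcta
Counted from the start, the C/EBP form begins at -216 in Lcn2 and -99 in Saa3, and the NF-kB form at -187 in Saa3 and -170 in Serpina3n. Both matches in Saa3 read on the opposite strand, and no matches overlapped. A match describes the letters of the window and is not a measured binding site.

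On the lower side, the ileal bile acid genes lay together. Fabp6 (11:43409551-43415042), the bile acid binding protein of ileal enterocytes, was at 3590, 6020 and 7433 FPKM in treated ileum and 13284 to 34589 FPKM in KO ileum, against 36045, 13644 and 14825 FPKM in uninjected ileum. The treated libraries lay below each uninjected library, and uninjected 1 was far above the other 2 (log2 -1.83, SE 0.59, 3.57-fold lower in treated ileum, limma, unadjusted p = 0.0141, adjusted p = 1.0). Osta, 1 subunit of the basolateral bile acid exporter, was at 534, 492 and 449 FPKM in treated and 1385, 1447 and 587 FPKM in uninjected ileum (log2 -1.11, SE 0.46), and the groups did not overlap. Its partner Ostb was at 569 to 1257 FPKM in treated and 900 to 1713 FPKM in uninjected libraries (log2 -0.61, SE 0.47). Fgf15, the enterocyte hormone that curbs hepatic bile acid synthesis, was at 1.80, 1.06 and 27.3 FPKM in treated and 41.7, 12.4 and 17.1 FPKM in uninjected ileum. Treated library 4 overlapped the uninjected ones (log2 -2.20, SE 1.03). All 7 tested bile acid genes were lower in treated ileum, with a median log2 difference of -0.61 and of -0.47 without the 2 libraries that stood apart, beside -0.02 over all genes.

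The other lower genes named by p belong to several functions. Card9 (2:26207696-26216438), an adaptor for fungal recognition receptors, was at 9.78, 6.61 and 10.9 FPKM in treated and 38.6, 43.9 and 18.0 FPKM in uninjected ileum (log2 -1.76, SE 0.45, limma, unadjusted p = 0.00417, adjusted p = 1.0). It had the smallest p of the 10 lower genes named. Cldn4 (5:135420996-135422804), a claudin of the tight junction, was at 87.3, 59.3 and 27.8 FPKM in treated and 141, 235 and 99.4 FPKM in uninjected ileum (log2 -1.49, SE 0.53). Areg, the growth factor amphiregulin, was at 3.61, 5.58 and 6.33 FPKM in treated and 35.5, 10.6 and 10.0 FPKM in uninjected ileum (log2 -1.54, SE 0.54). Suox, the mitochondrial sulfite oxidase, was at 152, 83.3 and 169 FPKM in treated and 317, 421 and 226 FPKM in uninjected ileum (log2 -1.27, SE 0.43). Slc25a48, a mitochondrial carrier, was at 6.18 to 23.0 FPKM in treated and 33.2 to 40.4 FPKM in uninjected libraries (log2 -1.74, SE 0.50). Vpreb3, expressed in B cells, was at 1.65 to 4.08 FPKM in treated and 4.60 to 16.9 FPKM in uninjected libraries (log2 -1.54, SE 0.55). The retroviral-like protease Asprv1 (log2 -1.39), the uroplakin Upk3a (-1.35) and the neuronal cell cycle gene Cend1 (-1.16) were low, with means under 6 FPKM in both groups. These 10 genes had a median GC content of 54.6%, against 50.8% over all tested genes. Each was lower without the 2 libraries that stood apart as well, as 9 of the 10 higher genes were higher, Anxa8 being under the level filter there.

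Tight junction genes as a list had a median near that of all genes. Of 16 tested 6 were higher and 10 lower, beside 47.2% higher over all genes, and the median log2 difference was -0.10, which turned to 0.01 with quantile normalization. For 3 of the 16 treated lay below uninjected without overlap, beside 1.22% of all genes, and for 0 it lay above. Besides Cldn4, the claudin Cldn23 was at 17.8 to 22.8 FPKM in treated and 28.3 to 29.9 FPKM in uninjected libraries (log2 -0.48, SE 0.32). The groups of Cldn23 did not overlap, and those of Cldn7, another claudin, overlapped (log2 -0.81, SE 0.63). General markers of gut epithelium lay lower. Of 7 such genes 1 was higher and 6 lower (median -0.48, and -0.34 with GC and length trends removed). Their sum was 5769 to 11987 FPKM in treated and 10024 to 20484 FPKM in uninjected libraries, with the keratin Krt8 at 1802 to 5790 FPKM in treated and 3968 to 11637 FPKM in uninjected libraries. Vil1, a brush-border actin binder, was at 565 to 852 FPKM in treated and 935 to 1277 FPKM in uninjected libraries. The sums of the epithelial markers overlapped between groups, and their part in the lower bile acid and claudin genes was not tested.

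In several other lists most genes were lower. Of 22 cholesterol biosynthesis genes 21 were lower (median log2 difference -0.49, and -0.62 without the 2 libraries that stood apart). Tm7sf2, a sterol reductase, was at 16.6 to 31.5 FPKM in treated and 34.1 to 103 FPKM in uninjected libraries (log2 -1.29, SE 0.49), without overlap. Pmvk, the phosphomevalonate kinase, had a log2 difference of -0.94 (SE 0.52). Of 13 immediate early genes 11 were lower (median -0.53). Atf3, a stress-induced transcription factor, was at 14.5, 23.9 and 15.6 FPKM in treated and 34.9, 50.0 and 25.1 FPKM in uninjected ileum (log2 -0.98, SE 0.40). The zinc finger factor Egr1 was at 3.74 to 4.35 FPKM in treated and 4.53 to 12.7 FPKM in uninjected libraries (log2 -1.07, SE 0.46). All 7 genes of MHC class II presentation were lower (median -0.54), 1 of them without overlap, beside 1.22% of all genes. H2-DMb1 was at 75.1 to 155 FPKM in treated and 131 to 292 FPKM in uninjected libraries, which overlapped. Of 12 hypoxia and glycolysis genes 11 were lower (median -0.21), with Ankrd37 at 7.49 to 11.7 FPKM in treated and 13.2 to 27.6 FPKM in uninjected libraries (log2 -1.09, SE 0.40). The other gene of this list without overlap, Ndrg1, a stress-responsive gene, was on the higher side, at 45.8 to 63.8 FPKM in treated and 28.6 to 41.8 FPKM in uninjected libraries (log2 0.61, SE 0.35). Of 16 lymphocyte markers 4 were higher and 12 lower (median -0.21). The B cell receptor partner Cd79a had a log2 difference of -1.18 (SE 0.62), and Ms4a1, the B cell surface protein CD20, of -1.29 (SE 0.84).

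Paneth cell and pancreatic acinar transcripts varied by library more than by group. All 12 Paneth cell genes had higher means on the log scale in treated ileum (median log2 difference 1.43), and 0 had groups that did not overlap, a count near the background of 2.70%. Their sum was 104503, 122341 and 49410 FPKM in treated and 6370, 50674 and 105392 FPKM in uninjected libraries, so uninjected library 1 lay far below the other 5. Ang4, an antimicrobial ribonuclease, was at 1443, 2161 and 718 FPKM in treated and 29.4, 364 and 1222 FPKM in uninjected ileum (log2 2.46, SE 1.21, and 0.97 without uninjected 1). Mmp7, the protease that activates defensins, was at 254 to 353 FPKM in treated and 12.7 to 503 FPKM in uninjected libraries (log2 1.91, and 0.58 without uninjected 1). Defa26, a defensin with near-identical copies, had a log2 difference of 1.49 (0.55 without uninjected 1). All 14 acinar genes were likewise higher (median 1.09, and 3.19 without treated 1 and uninjected 3), again with 0 groups apart, which is likewise near the background. The acinar sum was 502, 442 and 887 FPKM in treated and 21.7, 1080 and 219 FPKM in uninjected libraries. Markers of the proximal small intestine summed to 2161, 1373 and 279 FPKM in treated and 586, 2463 and 344 FPKM in uninjected libraries, so the highest of each group was treated 1 and uninjected 3. The part of these differences in sampling along the gut was not tested.

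Stem cell and absorptive genes showed smaller leanings. Of 12 stem cell and Wnt target genes 11 were higher (median log2 difference 0.42), with Lgr5, a marker of crypt base stem cells, at 1.31 to 4.69 FPKM in treated and 0.482 to 3.37 FPKM in uninjected libraries. Of 21 cell cycle and replication genes 19 were higher (median 0.18, and 0.42 without treated 1 and uninjected 3). Of 17 sugar transport and brush-border genes 11 were higher (median 0.20). Slc2a2, the basolateral glucose transporter, was at 9.33, 20.7 and 9.98 FPKM in treated and 2.67, 1.95 and 7.45 FPKM in uninjected ileum (log2 1.71, SE 0.55), and its groups did not overlap. Of 19 fat absorption genes 9 were higher and 10 lower (median -0.04), with the fatty acid transporter Cd36 at 2.63 to 15.9 FPKM in treated and 0.849 to 7.01 FPKM in uninjected libraries. Xenobiotic (10 of 26 higher, median -0.21), circadian (6 of 16, -0.21), glucocorticoid response (6 of 11, 0.02) and heat shock and unfolded protein response genes (7 of 19, -0.10) held 0 genes at an unadjusted p under 0.05, beside 0.821% of all genes, so these counts are near the background. Without treated 1 and uninjected 3 the median of the heat shock list turned to 0.09. Asns, the asparagine synthetase of the last list, was at 43.0 to 67.6 FPKM in treated and 18.0 to 41.9 FPKM in uninjected libraries (log2 0.96, SE 0.42). Cdkn1a, a cell cycle inhibitor and a VDR target in other cells, was at 115 to 232 FPKM in treated and 198 to 481 FPKM in uninjected libraries (log2 -0.94, SE 0.47). Among the other lists, genes were higher in treated ileum for 8 of 13 peptide and amino acid transporters (median 0.22, and -0.09 without treated 1 and uninjected 3), 11 of 18 interferon-stimulated genes (0.19), 11 of 13 enteroendocrine (0.26), 5 of 6 plasma cell (0.32), 3 of 4 tuft cell (0.30), 5 of 10 goblet cell (-0.13) and 4 of 7 colonocyte markers (0.01). For 10 smooth muscle genes the median was -0.04, and -0.86 without treated 1 and uninjected 3. The 4 tested genes for enteric neurons and glia had a median of 0.00 and the 2 for blood of -0.22.

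**Figure D3:**
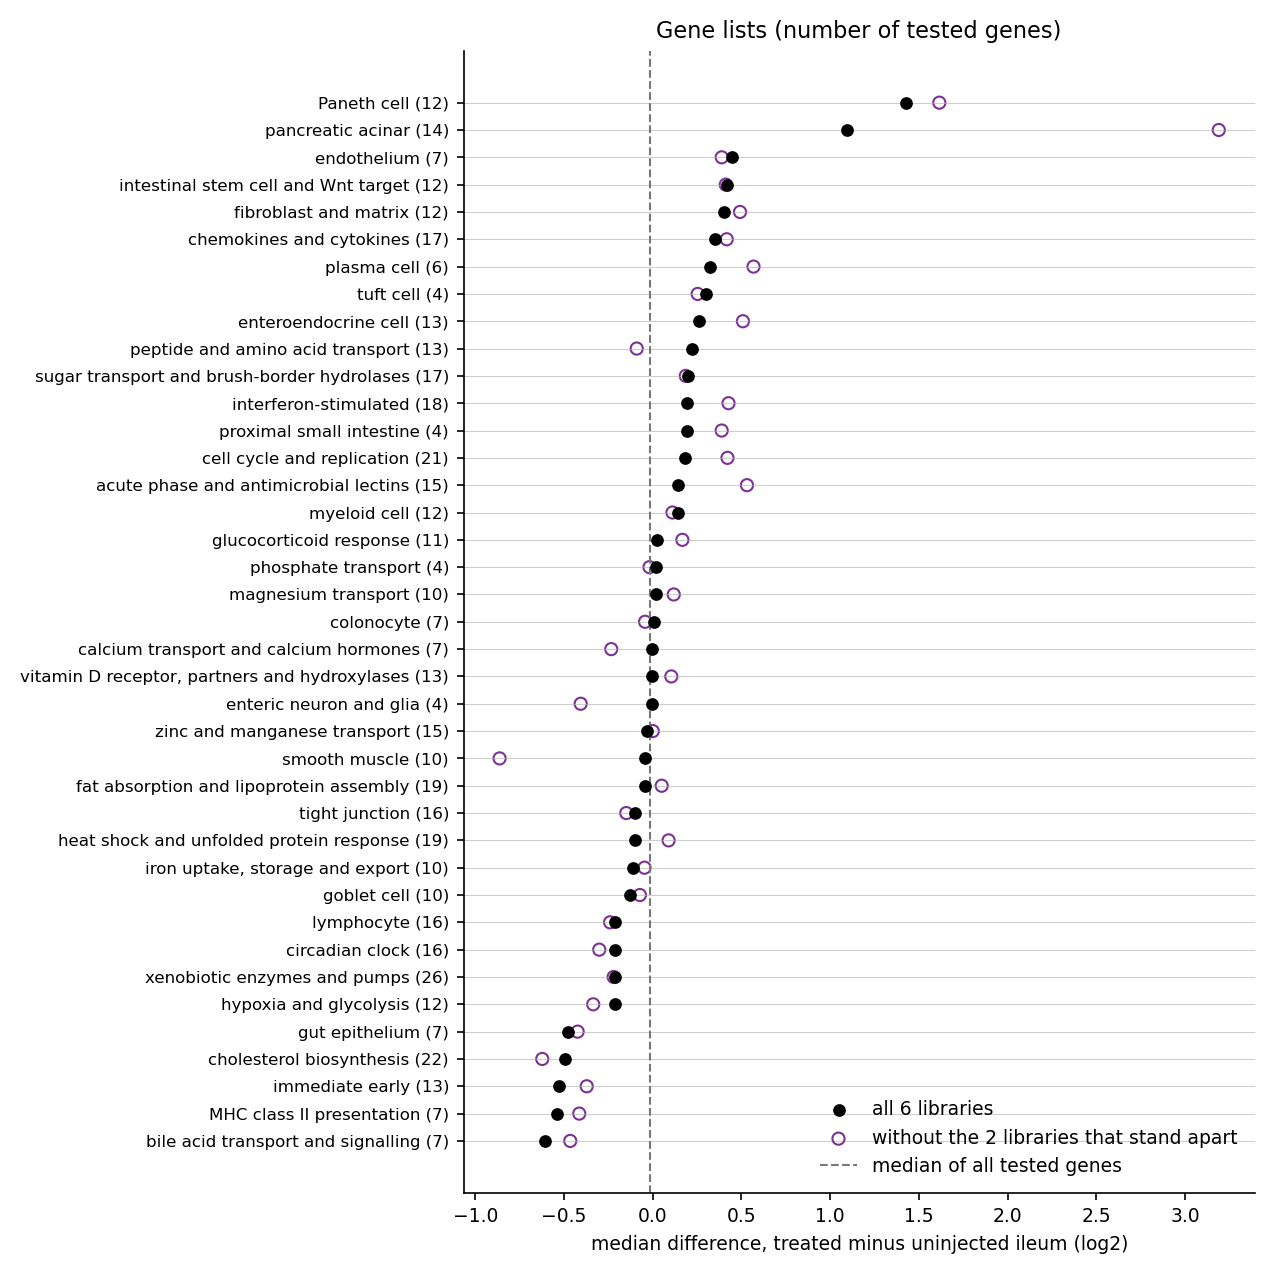
Median log2 difference between treated and uninjected ileum (horizontal axis) of each pathway and cell type list with at least 4 tested genes, in order, with all 6 libraries (filled) and without treated 1 and uninjected 3 (open); the dashed line is the median of all tested genes, -0.02. Paneth cell (1.43) and pancreatic acinar genes (1.09) lie farthest on the higher side and bile acid genes (-0.61) farthest on the lower side, and the acinar and smooth muscle medians move most when the 2 libraries are left out.

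Whether treatment went with a different change in ileum than in colon was tested by limma, with the libraries of both tissues in 1 fit. Of 12437 genes 0 passed (0% called, smallest adjusted p = 0.99999), and 28 (0.225%) had an unadjusted p under 0.05. Treated against uninjected colon likewise had 0 of 12567 genes past the threshold and 143 (1.14%) at an unadjusted p under 0.05. Cyp24a1 had a log2 difference of 3.85 in ileum and 4.54 (SE 0.56) in colon, and the difference between them was -0.69 (SE 0.85). S100g was lower in treated ileum (log2 -1.38) and higher in treated colon (1.33, SE 0.86), a difference of -2.71 (SE 1.39, limma, unadjusted p = 0.0731). Leaving out 1 library, this difference for S100g ran from -3.80 without uninjected ileum 4 to -2.03 without uninjected ileum 1. Slc30a10 likewise had -0.16 in ileum and 1.11 (SE 0.43) in colon, a difference of -1.27 (SE 1.16). For Trpv6 the difference was -0.37 (SE 0.91), at 0.530 to 3.14 FPKM in treated ileum and 219 to 365 FPKM in treated colon, levels from tables scaled separately.

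Of the 10 genes named as higher in treated ileum, 9 were also higher in treated colon, and of the 8 lower ones tested there 7 were also lower. Among all genes tested in both tissues, 68.3% of those higher and 68.1% of those lower in treated ileum had the same sign in colon. Whether ileum and colon libraries came from the same mice is not given in the labels. In colon Hp was 3.13 (SE 0.86), Serpina3n 3.01 (SE 0.66), Lcn2 2.67 (SE 0.81), S100a8 4.26 (SE 1.03), Ccl7 2.56 (SE 0.41) and Saa3 2.25 (SE 0.50) higher in treated libraries on the log2 scale. Anxa8 went the other way, at 1.83 in ileum and -1.13 (SE 0.96) in colon (difference 2.96, SE 1.20, limma, unadjusted p = 0.0286). Card9 had -1.76 in ileum and -0.25 (SE 0.42) in colon, where it was at 0.626 to 1.53 FPKM in treated and 0.678 to 1.76 FPKM in uninjected libraries. Uninjected colon library 3 had Fabp6 at 982 FPKM, against at most 196 FPKM in the other 3 uninjected colon libraries, and Hp at 76.6 FPKM.

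By the smallest p of the difference between tissues, and with none past the threshold, 3 genes leaned higher and 3 lower in ileum relative to colon. Slc2a2 (difference 1.97, SE 0.68), AA881470 (1.69, SE 0.58) and Bcs1l (1.38, SE 0.49), a chaperone of mitochondrial complex III, were on the higher side. In colon Slc2a2 was at 0.118 to 0.188 FPKM in treated and 0.0559 to 0.926 FPKM in uninjected libraries, under the level filter there. Its difference between tissues thus rests mainly on its ileum values (log2 1.71). Rinl (-2.45, SE 0.73), Asprv1 (-1.45, SE 0.53) and Socs3, the feedback inhibitor of cytokine signalling (-1.21, SE 0.38), were on the lower side. Socs3 was at 63.5, 39.9 and 44.5 FPKM in treated and 65.3, 46.7 and 53.4 FPKM in uninjected ileum, where the groups overlapped. In colon it was at 12.0, 12.3 and 17.2 FPKM in treated and 7.06, 5.78, 6.57 and 6.32 FPKM in uninjected libraries, where they did not.

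**Figure D4:**
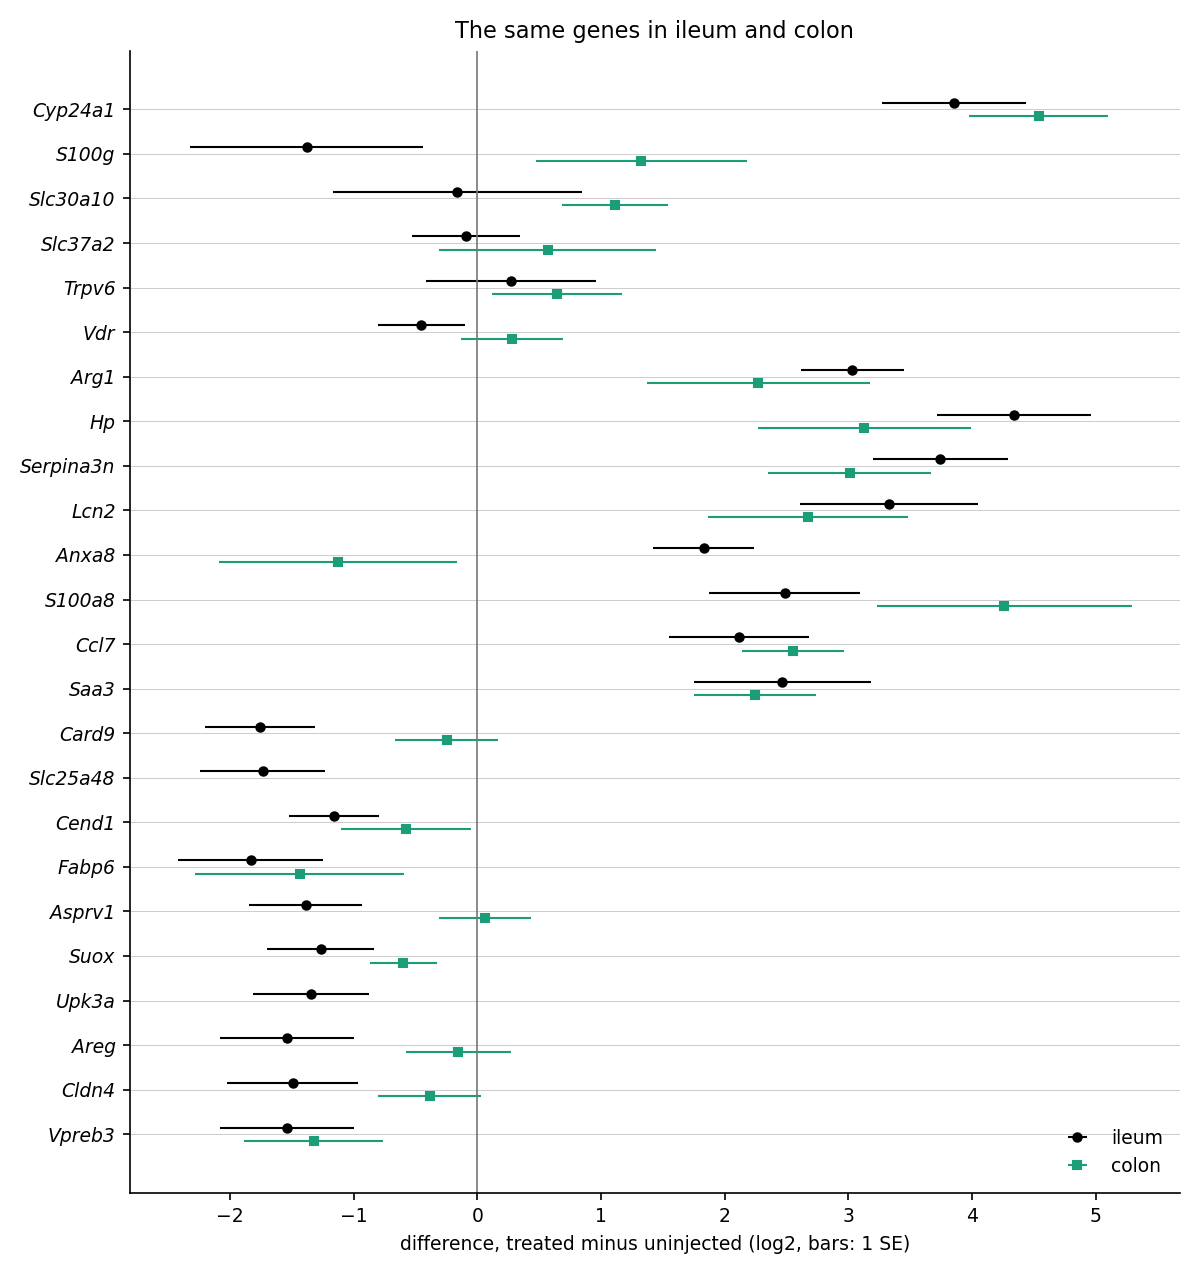
Log2 difference between treated and uninjected libraries (horizontal axis, bars of 1 SE) for the panel genes, Vdr and the genes named by p, in ileum (circles) and colon (squares); Slc25a48 and Upk3a were under the level filter in colon. Cyp24a1 stands at 3.85 in ileum and 4.54 in colon, S100g at -1.38 and 1.33, and Anxa8 at 1.83 and -1.13.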

How the data were processed

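The authors deposited FPKM for 21441 genes in 6 tables, each with 2 groups of 1 tissue. Per the labels' protocols, poly(A) libraries were mapped with CLC Genomics Workbench. Per the submitters' processing notes, the build was mm9 and the tools included DESeq2, DESeq 1.14.0 and kallisto 0.45.0, whose roles are not stated. Annotation and filters were not given in the sources used. FPKM divides by gene length and library total, so it does not remove GC trends that differ between libraries. A total of 25 symbols are written as dates and were left so.

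Columns of treated and uninjected ileum carry a number (1, 2, 4 and 1, 3, 4) that shows the group and not which of its samples it is, so no library has its own sex or age. The numbers were not taken to pair libraries.

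For genes averaging 1 FPKM or more, log2(FPKM + 0.5) was tested by limma 3.58.1 in R 4.3.3, two-sided, with an intensity trend and Benjamini-Hochberg adjustment over all genes tested, at a threshold of 0.05. Unadjusted and adjusted p-values are from this fit unless named otherwise. Differences on this scale understate the change of low genes. The ileum effect minus the colon effect was tested in 1 fit over both tissues. KO levels come from another table, whose shared libraries differed by a constant factor of 0.966 to 0.980. All KO levels given here were multiplied by the mean of these factors.

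Low values were whole multiples of a step per gene and library. Of 17900 ileum genes above 0, 77.1% came out as whole reads within 0.0001. A further 3952 were given approximate reads from their exon length. Whole and approximate reads together gave the depths and served 1 alternative, limma's voom, which called 0 genes (93 at an unadjusted p under 0.05). Depths so estimated are not the submitters' totals.

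The members and the 42 gene lists (561 entries, 552 found, 6 of them by another symbol) were chosen with earlier results of these data known. Named are the protocol's qPCR panel and Vdr, and in each direction 10 genes of smallest p with groups apart, a log2 difference of at least 1 and a mean of at least 2 FPKM in the higher group. Up to 4 members of each list, and 3 genes in each direction for the difference between tissues, are named by smallest p. Genes with predicted names (Gm, Rik, LOC, AI or BC) were passed over in these choices. Some genes that this rule names are not reported here. Positions are from the mm9 annotation matched by symbol. Fits were tested on simulated data, drawn independently for each gene and library. These held no trends shared across genes, so they do not show how the fits fare with the library trends seen here. Other tools were Python 3.11.15, pandas 2.3.3, numpy 2.4.6 and matplotlib 3.10.9.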

Additional observations from a re-analysis of the deposited data

Results flagged for a closer look

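In 4 libraries per group, a value that stands far from the other 3 was looked for in the 29 groups checked, of which chance marks about 1 in 20. Uninjected colon library 3 was marked for 5 genes, S100g at 27300 FPKM, Fabp6 at 981.8 FPKM, Hp at 76.61 FPKM, Arg1 at 15.33 FPKM and S100a8 at 6.831 FPKM, each far above the other 3 uninjected colon libraries. These genes share that 1 library and are not independent marks. Slc37a2 was marked in uninjected colon library 1, at 164.7 FPKM, and Cyp24a1 in KO ileum library 4, at 0.01139 FPKM with the other 3 listed at 0. With 3 libraries at 0 any value above 0 is marked, so this mark shows a trace level only. Groups of 3, which include both ileum groups of the comparison, were not checked.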

How the results depend on the processing

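The count of genes past the threshold in treated against uninjected ileum was 0 under each alternative except 2. With the KO libraries in the same fit 2 genes passed, Arg1 and Cyp24a1, with the same log2 differences as without them and smaller SEs. With the column number as a replicate block 34 passed, 30 higher and 4 lower. Only numbers 1 and 4 occur in both groups, leaving 1 residual degree of freedom, and the deviations correlated at -0.397 for number 1 and 0.656 for number 4, so the block shares only a number. Under the block Slc37a2 turned to 0.23 in ileum and 0.00334 in the tissue difference, and Trpv6 to 0.28 in the tissue difference. For the tissue difference 0 genes passed except 1 without uninjected ileum library 4, so leaving out 1 library gave 0 to 1. Leaving out 1 library, the count in ileum stayed at 0, with 54 to 241 genes at an unadjusted p under 0.05.

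With 1 library left out, the difference in mean FPKM ran from -14.5 to 12.7 for Slc30a10, -0.313 to 0.226 for Slc37a2 and -0.481 to 0.822 for Trpv6. The log2 difference ran from -1.13 to 0.63 for Slc30a10, -0.26 to 0.20 for Slc37a2, -0.37 to 0.68 for Trpv6 and -1.26 to 0.52 for Atp2b1, and the tissue difference of Trpv6 from -1.01 to 0.0332. The tissue difference of Trpv6 was 0.53 with voom and 0.16 without the 2 ileum libraries that stood apart, and that of Cyp24a1 0.14 without them. The removal of GC and length trends and the fits without 2 libraries were chosen after seeing the data. The cause of these turns was not tested. Of 1470 values of single genes under an alternative, 1442 kept their direction and stayed short of the threshold. Depth was estimated at 16.2 to 47.7 M reads per library, and its part in genes listed at 0 in a library was not tested.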
